A study of Rattus norvegicus with 9 samples.

Results

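Matricellular and adhesive glycoproteins are secreted matrix proteins, many of which influence how cells hold on to the collagen fibres around them. Their transcripts were followed here for 10 genes, Fn1, Postn, Thbs1, Thbs2, Tnc, Sparc, Tgfbi, Sned1, Spon1 and Eln, which were picked by name from the deposited table. All 10 were found, as 10 of 33539 listed genes. The data were 9 polyadenylated RNA libraries of rat mesenchymal stem cells (MSCs) from bone marrow, a stromal cell type with bone, fat and cartilage as its possible fates. They came from cells at 48 hours in an SA hydrogel, the series' own term, made with fast, medium or slow stress relaxation. The 3 groups, called Fast, Medium and Slow, held 3 libraries each. Stress relaxation is the decay of internal force in a gel held at a fixed deformation, and fast, medium and slow name its rate. All groups shared the same low-glucose medium with serum, and none was an untreated control without a gel. Animals, strain and culture dishes are not described in the sources used here, and a p-value here therefore speaks of the spread among the 9 libraries, which may be technical.

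Fibronectin (Fn1) is assembled by cells into fibrils through integrins, the receptors that connect matrix to the cytoskeleton, and the fibrils then guide collagen assembly. Periostin (Postn) and the TGF-beta induced protein (Tgfbi) share fasciclin domains and bind collagen and integrins. Thrombospondins (Thbs1, Thbs2), tenascin-C (Tnc) and SPARC are the classical matricellular proteins, known for loosening or modulating adhesion in remodelling tissue, and SPARC also binds collagen and mineral in bone. Elastin (Eln) is the core of elastic fibres and is grouped here with the adhesive proteins it assembles beside.

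The libraries held 14128980 to 15779328 counts. Of all counts the 10 genes took 6.47 ± 0.149% in the Fast gel, against 7.61 ± 0.0404% for Medium and 7.34 ± 0.0583% for Slow (SD, n = 3), most of it from Fn1. In Slow replicate 3 there were 965 genes that had counts there alone, where the other libraries had 126 to 205 such genes. Stromal markers were present throughout, with a summed level of 30501 to 33413 CPM (counts scaled to a common library size with TMM factors) in Fast, against 26892 to 27862 for Medium and 24834 to 25622 for Slow. That sum followed Col1a1 (16379 ± 936 CPM in Fast against 9311 ± 54.0 in Slow). Of the 10 stromal genes 3 were higher and 5 lower in Fast than in Slow (3 lower when scaled by library size alone), with a median log2 difference of -0.04, where 21.2% of all tested genes were higher and 21.7% lower. Endothelial markers summed to 31.6 to 43.8 CPM over all libraries. Smooth muscle and pericyte markers summed to 774 to 807 CPM in Fast, with more in Slow (860 to 872) and most in Medium (950 to 976). Markers of lymphocytes and neutrophils summed to 0.908 to 2.46 CPM, with Cd3g and Ms4a1 at 0 in every group. Myeloid markers were present and differed between the gels. The 16 genes, all tested, summed to 3018 to 3179 CPM in Fast, 2114 to 2125 in Medium and 1804 to 1885 in Slow, with none at 0 in any group. Of them 12 were higher and 2 lower in Fast than in Slow, beside the same 21.2% and 21.7% of all genes. The share of myeloid RNA in the results that follow was not tested. In such bulk samples fewer cells of a type and less RNA per cell cannot be told apart.

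Compared per gene length, as FPKM (fragments scaled by gene length and library size), Fn1 was highest and Eln lowest in every gel. Fn1 stood at 4460 ± 110 FPKM in the Fast gel, 6256 ± 22.3 in the Medium gel and 6133 ± 58.4 in the Slow gel (SD, n = 3), and was rank 4 of all genes in each gel. The order of the others depended on the gel. In Slow, Sparc was followed by Thbs1, Postn and Thbs2, at 2160, 1882, 1182 and 1068 FPKM. In Fast, Postn came directly after Fn1 at 2520 FPKM, then Sparc at 2411, Thbs2 at 1082 and Thbs1 at 912 FPKM. Tgfbi and Tnc followed at 138 to 248 FPKM in all gels, with Tnc above Tgfbi in Slow and below it in Fast and Medium. Sned1, Spon1 and Eln came last. Neighbours in this order did not overlap between their libraries in any gel.

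**Figure D1:**
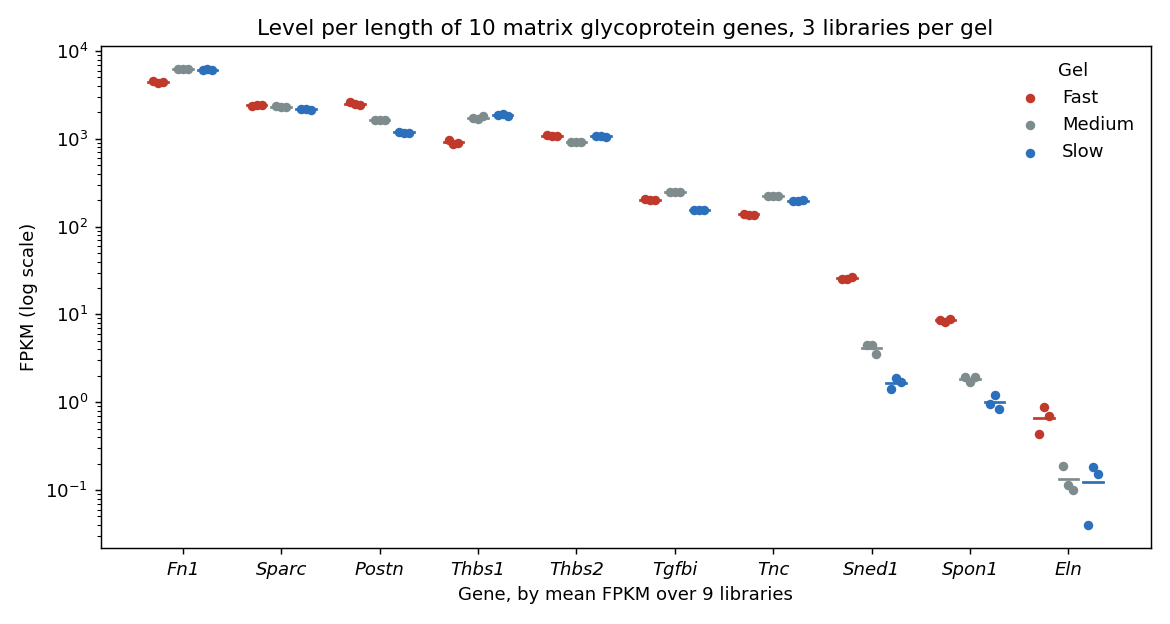
Level of each gene in FPKM on a log axis, with 1 point per library and a bar at the mean of the 3 libraries of a gel. Postn lies above Thbs1 in Fast (2520 against 912 FPKM) and below it in Slow (1182 against 1882 FPKM).

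Fast against Slow contrasts the most different relaxation rates. Of the 10 genes 6 were higher in Fast (Sned1, Spon1, Eln, Postn, Tgfbi and Sparc), 3 were lower (Thbs1, Tnc and Fn1) and Thbs2 did not pass an adjusted p of 0.05. In the same fit 42.9% of the 14406 tested genes passed, 21.2% higher and 21.7% lower, and 72.7% of the 466 genes with a mean of at least 300 CPM, a level chosen after the values were seen and reached by 7 of the 10. The count of called genes is thus read against a high background. Eln passed the filter on low counts through its Fast libraries alone, so it had to be higher in Fast to be tested. Without it 5 of 9 genes were higher and 3 lower, and 4 of the 9 had a called difference of at least 2-fold, against 7.97% of all genes. The libraries of Fast and Slow did not overlap for 8 of the 9, as for 51.7% of all genes. The median log2 difference was 0.16 over these 9 (0.28 with Eln) and 0.01 over all tested genes.

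In Medium against Slow 6 genes were higher in Medium (Sned1, Spon1, Tgfbi, Postn, Tnc and Sparc), Thbs2 was lower, and Fn1, Thbs1 and Eln did not pass, against 10.3% of all genes called (4.74% higher, 5.57% lower) and 41.4% of those with at least 300 CPM. Fast against Medium shares its samples with both of the others. In it, Eln left aside for the same reason, 5 of 9 genes were higher in Fast (Sned1, Spon1, Postn, Thbs2 and Sparc) and 4 lower (Thbs1, Tnc, Fn1 and Tgfbi), against 33.0% of all genes called (15.6% higher, 17.3% lower) and 69.1% of those with at least 300 CPM. The libraries of Fast and Medium did not overlap for any of these 9, as for 44.6% of all genes, and 2 of them (Sned1 and Spon1) had a called difference of at least 2-fold, as had 5.06% of all genes. The 9 genes also passed the test of the 3 groups together, as did 42.2% of all genes, with adjusted p between 1.35e-13 for Sned1 and 1.52e-05 for Sparc (edgeR quasi-likelihood F-test).

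**Figure D2:**
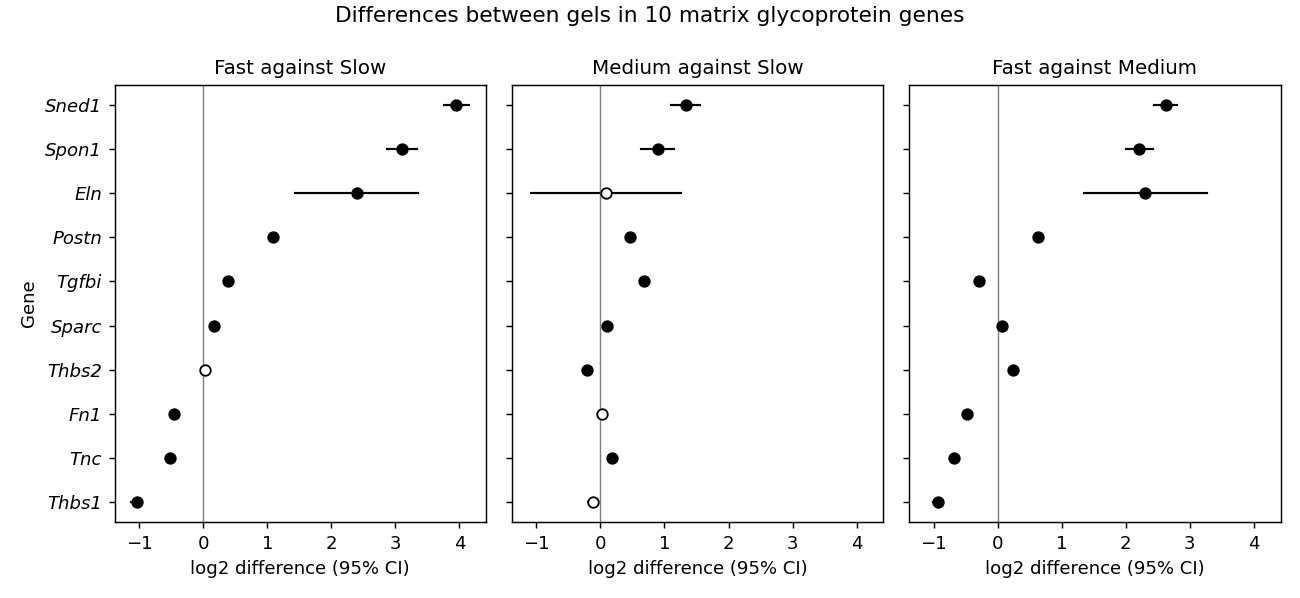
Log2 difference of each gene in the 3 pairs of gels, with its 95% confidence interval. Filled points passed an adjusted p of 0.05 and open points did not; for Eln against Fast this is not an independent test. Sned1 and Spon1 lie farthest to the right in Fast against Slow, at 3.95 and 3.10, and Thbs1 farthest to the left at -1.04.

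The promoter table, made from RefSeq on the rat build GRCr8, matched 6 of the 10 genes (Postn, Thbs1, Tnc, Sparc, Tgfbi and Sned1). Shown are 4 of them, a pair that was higher in Fast than in Slow (Sned1, Postn) and a pair that was lower (Thbs1, Tnc). Each runs 5′ to 3′ on the gene's strand, from 250 bases before the annotated start to 50 after it. Capitals mark matches on either strand to any of 6 short motifs. These were the TATA box, searched as TATAAA, and the GC box, searched as GGGCGG. The CCAAT box was searched by its own letters, and the CArG box of serum response factor by its usual pattern. The TEAD site was searched as CATTCC. The AP-1 site was searched as TGANTCA.
Sned1, chr9:101221280-101221579, plus strand: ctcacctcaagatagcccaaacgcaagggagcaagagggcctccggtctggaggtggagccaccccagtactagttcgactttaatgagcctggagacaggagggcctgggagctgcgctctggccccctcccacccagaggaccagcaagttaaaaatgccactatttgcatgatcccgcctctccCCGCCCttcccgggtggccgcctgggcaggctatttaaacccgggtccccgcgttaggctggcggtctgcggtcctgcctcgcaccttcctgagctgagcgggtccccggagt
Postn, chr2:140677811-140678110, plus strand: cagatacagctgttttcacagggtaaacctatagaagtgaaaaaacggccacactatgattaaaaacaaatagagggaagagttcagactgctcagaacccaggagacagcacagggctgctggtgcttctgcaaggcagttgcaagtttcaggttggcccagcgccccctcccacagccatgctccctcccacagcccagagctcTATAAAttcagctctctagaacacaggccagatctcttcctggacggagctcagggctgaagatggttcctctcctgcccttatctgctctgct
Thbs1, chr3:125510000-125510299, plus strand: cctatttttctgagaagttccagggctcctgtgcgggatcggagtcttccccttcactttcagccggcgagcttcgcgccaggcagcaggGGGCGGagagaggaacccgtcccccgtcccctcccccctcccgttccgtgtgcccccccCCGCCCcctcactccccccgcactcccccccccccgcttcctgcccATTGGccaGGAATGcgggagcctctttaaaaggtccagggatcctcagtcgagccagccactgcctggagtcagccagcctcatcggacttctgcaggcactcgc
Tnc, chr5:82476082-82476381, minus strand: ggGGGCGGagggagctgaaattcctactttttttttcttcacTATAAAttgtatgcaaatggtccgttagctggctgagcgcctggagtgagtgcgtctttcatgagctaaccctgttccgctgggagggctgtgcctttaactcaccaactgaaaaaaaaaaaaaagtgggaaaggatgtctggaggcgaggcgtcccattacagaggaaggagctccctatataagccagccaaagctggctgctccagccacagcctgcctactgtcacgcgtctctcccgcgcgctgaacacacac
The Postn window held a TATAAA that began 44 bases before the start, and the Tnc window one that began 208 bases before it. Only these exact letters were searched, so similar ones were not counted. Among those are tatataag in Tnc, nearer its start than the match, tatttaaa in Sned1 and ctttaaaa in Thbs1. Whether any window lacks a TATA box was therefore not tested. TATAAA was found in 14.2% of 33469 promoters of the same length. Sned1 held 1 GC box, 63 bases before the start, Thbs1 held 2 and Tnc 1, against 33.1% of promoters with at least 1. Thbs1 also held the TEAD letters 47 bases and CCAAT 55 bases before the start, found in 14.2% and 37.5% of promoters. The TEAD letters were also in the window of Sparc, which was higher in Fast, 33 bases before the start. Neither TGANTCA, found in 7.33% of promoters, nor the CArG box, found in 1.64%, was in any of the 6 windows. Of the pair higher in Fast, the Sned1 window was 63.3% G or C with 16 CpG and the Postn window 52% with 3. Of the pair lower in Fast, the Thbs1 window was 67% with 18 CpG and the Tnc window 52.3% with 12, beside a median of 51.7% over all promoters. The pair that was higher in Fast and the pair that was lower each held 1 window with TATAAA, counting these exact letters only. A match describes letters only, and binding was not measured.

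Fn1, placed by the deposited table on chromosome 9 from 78900103 to 78969078 (ENSRNOG00000014288, minus strand, protein-coding), was the most counted of the 10. The libraries read 38772, 36995 and 37512 CPM in the Fast libraries, 52736, 52756 and 53152 in those of Medium and 51623, 52190 and 51549 in those of Slow. The 3 Fast libraries lay below all 6 others. Fn1 fell by 0.46 ± 0.014 on the log2 scale in Fast against Slow (SE, edgeR adjusted p = 3.31e-12) and by 0.49 ± 0.014 against Medium (adjusted p = 3.27e-12). Medium and Slow libraries did not overlap, as for 29.5% of all genes, but differed by a log2 of 0.03 ± 0.014 with an adjusted p of 0.230. That difference passed when the 6 libraries of the pair were fitted alone (adjusted p = 0.00177) or without Fast replicate 1 (0.00643). The build of these coordinates is not given in the sources used here.

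Periostin moved in the opposite direction and in steps. Postn (ENSRNOG00000012660, chromosome 2 from 143656793 to 143688087) read 8576, 8022 and 7991 CPM in the Fast libraries, 5287, 5309 and 5278 in those of Medium and 3900, 3768 and 3836 in those of Slow. No library of one gel overlapped another gel. Such separation held for 51.7% of all genes in Fast against Slow, 29.5% in Medium against Slow and 44.6% in Fast against Medium. Postn rose by 1.10 ± 0.024 in Fast over Slow (adjusted p = 8.61e-14), by 0.46 ± 0.024 in Medium over Slow (2e-08) and by 0.63 ± 0.024 in Fast over Medium (4.70e-11). On the log2 scale Medium lay 42.4% of the way from Slow to Fast. Its difference from the midpoint was -0.08 ± 0.021 (adjusted p = 0.0165), and this call was lost with limma on FPKM values (0.0971) and without Medium replicate 1, 2 or 3 (0.0792, 0.0594 and 0.0817).

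Tgfbi, the other fasciclin domain gene, was highest in Medium. The gene (ENSRNOG00000012216, chromosome 17 from 8400146 to 8429338) read 550, 536 and 545 CPM in the Fast libraries, 662, 665 and 669 in those of Medium and 413, 416 and 414 in those of Slow. The 3 gels were again fully apart. Tgfbi rose by 0.68 ± 0.024 in Medium over Slow (adjusted p = 3.04e-10) and by 0.39 ± 0.024 in Fast over Slow (7.05e-09), and fell by 0.29 ± 0.024 in Fast against Medium (2.64e-07). Against the midpoint of Fast and Slow, Medium was higher by 0.49 ± 0.021 (adjusted p = 8.18e-10), a direction in which 7.20% of all genes were called. It was the largest rise over the midpoint among the 10 genes.

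The thrombospondins, secreted proteins that bind integrins and other receptors, diverged. Thbs1, whose product also activates latent TGF-beta, lies on chromosome 3 from 109862117 to 109873466 (ENSRNOG00000045829). It read 3602, 3189 and 3284 CPM in the Fast libraries, 6336, 6247 and 6621 in those of Medium and 6900, 7096 and 6729 in those of Slow. The Fast libraries lay below all others, with a fall of 1.04 ± 0.037 against Slow (adjusted p = 1.14e-11) and of 0.93 ± 0.037 against Medium (6.81e-11). The step from Slow to Medium was -0.11 ± 0.037 and did not pass (adjusted p = 0.0752). It did pass with DESeq2 (0.0399), limma-voom (0.0310), no filter beyond 1 count (0.00255), the 6 libraries of the pair alone (0.00209), and without Fast replicate 1 (0.00332) or 2 (0.0461).

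Thbs2, whose product limits blood vessel growth and matrix protease activity in mice, lies on chromosome 1 from 56653938 to 56683731 (ENSRNOG00000010529). It read 6506, 6368 and 6339 CPM in the Fast libraries, 5437, 5400 and 5442 in those of Medium and 6294, 6354 and 6279 in those of Slow. Fast and Slow libraries overlapped and Medium lay below both. Fast and Slow differed by 0.02 ± 0.016 (95% interval -0.01 to 0.06, adjusted p = 0.304). This value depended on scaling and passed as higher in Fast when scaled by the upper quartile (0.08, adjusted p = 0.00154) or by library size alone (0.11, 7.25e-05). Medium was lower than Slow by a log2 difference of -0.22 ± 0.016 (adjusted p = 4.99e-07) and lower than the midpoint by -0.23 ± 0.014 (3.24e-08), a direction in which 4.89% of all genes were called.

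Tenascin-C, a large hexameric protein of healing and developing tissue, followed Fn1 rather than Postn in Fast. Tnc (ENSRNOG00000058645, chromosome 5 from 79789671 to 79874671) read 1020, 988 and 995 CPM in the Fast libraries, 1629, 1602 and 1611 in those of Medium and 1431, 1414 and 1444 in those of Slow. All gels were apart, with Medium highest. Tnc fell by 0.51 ± 0.022 in Fast against Slow (adjusted p = 8.27e-11) and by 0.69 ± 0.022 against Medium (6.11e-12), and rose by 0.17 ± 0.022 in Medium over Slow (8.16e-05). Medium exceeded the midpoint by 0.43 ± 0.019 (8.98e-10).

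Sparc, the counter-adhesive collagen-binding protein also called osteonectin, varied least of the genes that were called in Fast against Slow. Sparc (ENSRNOG00000012840, chromosome 10 from 40742400 to 40764185) read 4911, 5062 and 5056 CPM in the Fast libraries, 4844, 4780 and 4732 in those of Medium and 4487, 4509 and 4436 in those of Slow. The gels did not overlap, although Fast replicate 1 was close to Medium replicate 1. Sparc rose by 0.16 ± 0.018 in Fast over Slow (adjusted p = 4.28e-06) and by 0.10 ± 0.018 in Medium over Slow (0.00292). Fast exceeded Medium by 0.07 ± 0.018 (0.0115). Limma on log2(FPKM + 1) ended the calls of Medium over Slow (0.0550) and of Fast over Medium (0.0918). The latter also went without Medium replicate 3 (0.0665) and with no filter beyond 1 count (0.0614).

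Sned1 and Spon1 had lower levels and the largest differences. Sned1 encodes a secreted protein with a nidogen domain, EGF-like repeats and fibronectin type III domains. The gene (ENSRNOG00000023548, chromosome 9 from 100380515 to 100437056) read 143, 143 and 150 CPM in the Fast libraries, 25.4, 25.3 and 20.1 in those of Medium and 7.98, 10.6 and 9.51 in those of Slow. These values rest on 2198 to 2283 counts per library in Fast, 280 to 373 in Medium and 112 to 163 in Slow. The Fast libraries were far above the others, and Medium above Slow. Sned1 rose by 3.95 ± 0.093 in Fast over Slow, a 15.5-fold difference (adjusted p = 1.46e-13), by 1.33 ± 0.11 in Medium over Slow (1.03e-06) and by 2.62 ± 0.082 in Fast over Medium (4.89e-12). It was the only one of the 10 with a called difference of at least 2-fold in Medium over Slow, where 0.701% of all genes had one. Medium lay 33.7% of the way from Slow to Fast on the log2 scale.

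Spon1 encodes F-spondin, a secreted adhesive protein with thrombospondin repeats that was first studied in the floor plate of the spinal cord. The gene (ENSRNOG00000058003, chromosome 1 from 178636544 to 178935051) read 53.7, 51.2 and 56.2 CPM in the Fast libraries, 12.1, 10.6 and 12.05 in those of Medium and 5.92, 7.53 and 5.21 in those of Slow, from 75 to 831 counts per library. The gels were apart in the same order as for Sned1. Spon1 rose by 3.10 ± 0.11 in Fast over Slow, 8.60-fold (adjusted p = 7.30e-12), by 0.89 ± 0.12 in Medium over Slow (1.77e-04) and by 2.21 ± 0.098 in Fast over Medium (2.24e-10). Medium lay 28.8% of the way from Slow to Fast, and both Spon1 (-0.66 ± 0.096, adjusted p = 2.27e-04) and Sned1 (-0.65 ± 0.083, 7.04e-05) were lower in Medium than the midpoint. On log2(FPKM + 1), which compresses low levels, the differences of Fast over Slow were smaller and kept their calls.

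Elastin was counted at the edge of detection. Eln (ENSRNOG00000001469, chromosome 12 from 24978483 to 25021863) had 24, 51 and 37 counts in the Fast libraries, 10, 6 and 5 in those of Medium and 2, 10 and 8 in those of Slow. Fast lay above both other gels, which overlapped. Because no Medium or Slow library reached the filter, a higher level in Fast was a condition of testing Eln, and its differences from Fast are a description with no p-value. The log2 difference was 2.39 ± 0.45 in Fast over Slow and 2.30 ± 0.45 in Fast over Medium. On log2(FPKM + 1) the first was 0.56. Medium and Slow differed by 0.09 ± 0.55 (95% interval -1.08 to 1.26, adjusted p = 0.954), so a difference of 2-fold in either direction was not excluded by the interval at this depth. No row of the table overlapped Eln, nor any other of the 10 except Fn1 and Sned1, whose overlapping unnamed loci had 24 and 0 counts in all libraries together.

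Ratios of 2 genes within a library do not depend on how libraries are scaled. The Thbs2 to Thbs1 ratio was 1.81, 1.997 and 1.93 in the Fast gel, 0.858, 0.864 and 0.822 in the Medium gel and 0.912, 0.896 and 0.933 in the Slow gel. Thbs2 counts thus exceeded Thbs1 counts in the 3 Fast libraries only. The ratio in Fast was 2.09-fold that in Slow and 2.25-fold that in Medium. Postn to Fn1 was 0.217 ± 0.00408 in the Fast gel, 0.1001 ± 0.00069 in the Medium gel and 0.0740 ± 0.0017 in the Slow gel (SD, n = 3), a 2.93-fold difference between Fast and Slow. Sparc to Fn1 was 0.133 ± 0.00538, 0.0905 ± 0.00141 and 0.0865 ± 0.00043. Tnc to Fn1 ranged only from 0.0265 ± 0.00021 in Fast to 0.0305 ± 0.00032 in Medium, with 0.0276 ± 0.00048 in Slow. In each of the 12 comparisons the groups did not overlap, and the two-sided exact permutation p was 0.1, the smallest that 3 against 3 allows, so none could pass 0.05 before or after adjustment over the 12. The 12 are not separate observations, because they reuse the same libraries and most share Fn1 as denominator. How often ratios of other genes separate in this way was not tested.

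**Figure D3:**
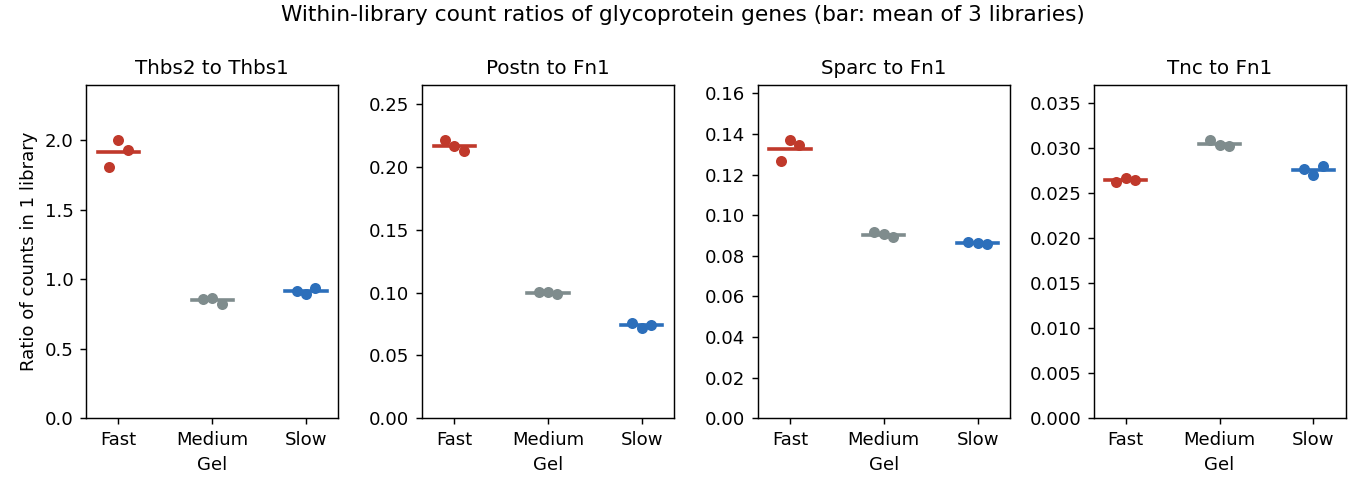
Ratio of counts of 2 genes in each library, with a bar at the mean of the 3 libraries of a gel and axes from 0. The Thbs2 to Thbs1 ratio lies between 1.81 and 1.997 in Fast and below 1 in Medium and Slow, while Tnc to Fn1 stays between 0.0263 and 0.0309 in all libraries.

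Among family relatives of the 10 genes, 11 of 15 listed were tested, and 3 were higher and 2 lower in Fast than in Slow (median log2 difference -0.04, beside 0.01 over all genes, of which 42.9% were called). When scaled by library size alone, 1 was lower. Tenascin-N (Tnn) was the most abundant of those named, at 3160 ± 120 CPM in the Fast gel, 4471 ± 13.6 in the Medium gel and 5061 ± 85.1 in the Slow gel, and fell by 0.68 ± 0.024 in Fast against Slow (adjusted p = 1.22e-11), in the direction of Tnc. Against Slow it also fell by 0.18 ± 0.024 in Medium (1.85e-04), where Tnc rose. Thbs4 was low, at 5.45 ± 0.241 CPM in Fast against 2.50 ± 0.419 in Slow, and rose by 1.13 ± 0.21 (5.00e-04). The relatives of SPARC named here differed little, with Fstl1 up by 0.14 ± 0.026 and Smoc2 down by a log2 difference of -0.16 ± 0.029. The Smoc2 call was lost with library size only (adjusted p = 0.0663).

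Of 17 tested receptors of these proteins, 10 were lower and 5 higher in Fast than in Slow (median log2 difference -0.20), beside 21.7% lower and 21.2% higher over all genes, and 9 were lower and 2 higher in Medium than in Slow (median -0.12, beside 10.3% of all genes called). Itga5, the alpha subunit of the main fibronectin receptor, fell by 0.79 ± 0.030 in Fast (264 ± 4.68 against 457 ± 5.77 CPM in Slow, adjusted p = 2.15e-11). Itga8, a subunit that pairs with beta 1 to bind fibronectin and other RGD-bearing ligands, fell by 2.25 ± 0.065, from 106 ± 0.338 to 22.2 ± 0.831 CPM (1.39e-12). The proteoglycan gene Sdc1 fell by 1.24 ± 0.028 and the hyaluronan receptor gene Cd44 by 1.05 ± 0.034. Of the 5 that were higher, Itga9 differed most, at a low level. It rose by 2.74 ± 0.21, from 1.41 ± 0.267 to 9.48 ± 0.927 CPM (edgeR adjusted p = 9.00e-08). Stab1, a fasciclin domain scavenger receptor of macrophages that takes up SPARC, rose by 0.60 ± 0.045 in Medium over Slow (6.49e-07), and its level was 203 ± 4.91 CPM in Fast and 94.96 ± 6.31 in Slow. The thrombospondin receptor gene Cd47 (0.04, adjusted p = 0.598) and Cd36 (-0.04, 0.861) did not pass in Fast against Slow.

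Of 13 tested partners of elastin in elastic fibres, 9 were higher and 1 lower in Fast than in Slow, with a median log2 difference of 0.40, beside 21.2% higher and 21.7% lower over all genes. Among genes with a mean of at least 300 CPM, as several of these partners are, 72.7% were called in either direction. The crosslinking enzyme gene Loxl1 rose by 1.61 ± 0.048, from 147 ± 4.85 to 447 ± 32.4 CPM (adjusted p = 1.90e-12). Ltbp2 and fibrillin-1 (Fbn1), which encode microfibril proteins, rose by 0.74 ± 0.024 and 0.40 ± 0.024. Fbln2 fell by 0.46 ± 0.027 in Fast against Slow, and rose by 0.15 ± 0.027 in Medium over Slow. Levels of these 4 partners, named by smallest adjusted p, lay between 388 and 1388 CPM in Fast, where Eln itself was at 2.42 ± 0.816 CPM. The other listed partners ranged in Fast from 0 CPM for Mfap4, which was not tested, to 1422 ± 82.1 for Lox. In Medium over Slow, where 10.3% of all genes were called, 3 of the 13 were higher and 1 lower, the latter being 0 without Slow replicate 2 and 2 without Fast replicate 1.

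Fibrillar collagens, to which Postn, Fn1 and Sparc products bind, were higher in 6 of 10 tested genes and lower in 1 in Fast against Slow (median log2 difference 0.20), where 42.9% of all genes were called. The share was 72.7% for genes with at least 300 CPM. The 1 lower call was lost when scaling by the upper quartile or by library size alone. Col1a1 rose by 0.81 ± 0.029 (adjusted p = 1.28e-11) and Col3a1 by 0.31 ± 0.018, and Col11a1 by 0.19 ± 0.031. Col1a2 differed by 0.07 ± 0.15 and did not pass (edgeR adjusted p = 0.759), with a wide spread in Fast (3484 ± 1077 CPM). Col5a3 was, like Tgfbi, highest in Medium, at 368 ± 2.88 CPM against 260 ± 27.3 in Fast and 204 ± 3.46 in Slow (Medium over Slow 0.85 ± 0.056, 1.87e-07). In Medium over Slow, where 4.74% of all genes were higher, 5 were higher, but 3 without any 1 of the Medium or Slow libraries.

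Proteases that cut these proteins moved both ways, 6 of 14 higher and 6 lower in Fast than in Slow (median log2 difference 0.04), where 42.9% of all genes were called and 72.7% of those with at least 300 CPM. Mmp3 and Mmp9 fell by 1.18 ± 0.036 and 0.91 ± 0.027, and Adamts1, which can cut thrombospondins, by 0.57 ± 0.030. Mmp14, a membrane collagenase, rose by 0.58 ± 0.021 (adjusted p = 1.63e-11). Of 15 other secreted matricellular genes, 7 were higher and 6 lower, against the same 42.9% and 72.7%. Wisp2, a CCN family gene, rose by 2.82 ± 0.073 in Fast (140 ± 1.56 against 19.7 ± 2.83 CPM, 3.87e-13) and by 1.15 ± 0.079 in Medium over Slow. Of its relatives, Ctgf fell by 0.39 ± 0.020 in Fast against Slow and Nov by 0.63 ± 0.049 in Medium against Slow. The milk fat globule protein gene Mfge8 fell by 0.91 ± 0.022 in Fast and the osteopontin gene Spp1 by 0.60 ± 0.016.

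Of 13 TGF-beta ligands, receptors and SMADs, 4 were higher and 5 lower in Fast than in Slow (median log2 difference -0.05), and 0 were higher and 3 lower in Medium than in Slow. Over all genes 42.9% and 10.3% were called in these comparisons. Tgfb2 fell by 0.70 ± 0.039 (adjusted p = 1.88e-09), Lrrc32, which tethers latent TGF-beta to the membrane, by 1.09 ± 0.068, and the inhibitor gene Smad7 by 0.47 ± 0.055. The coreceptor gene Tgfbr3 rose by 0.76 ± 0.052. In Medium, where Tgfbi was highest, Ltbp1 fell by 0.29 ± 0.044 against Slow and Lrrc32 by 0.40 ± 0.065.

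**Figure D4:**
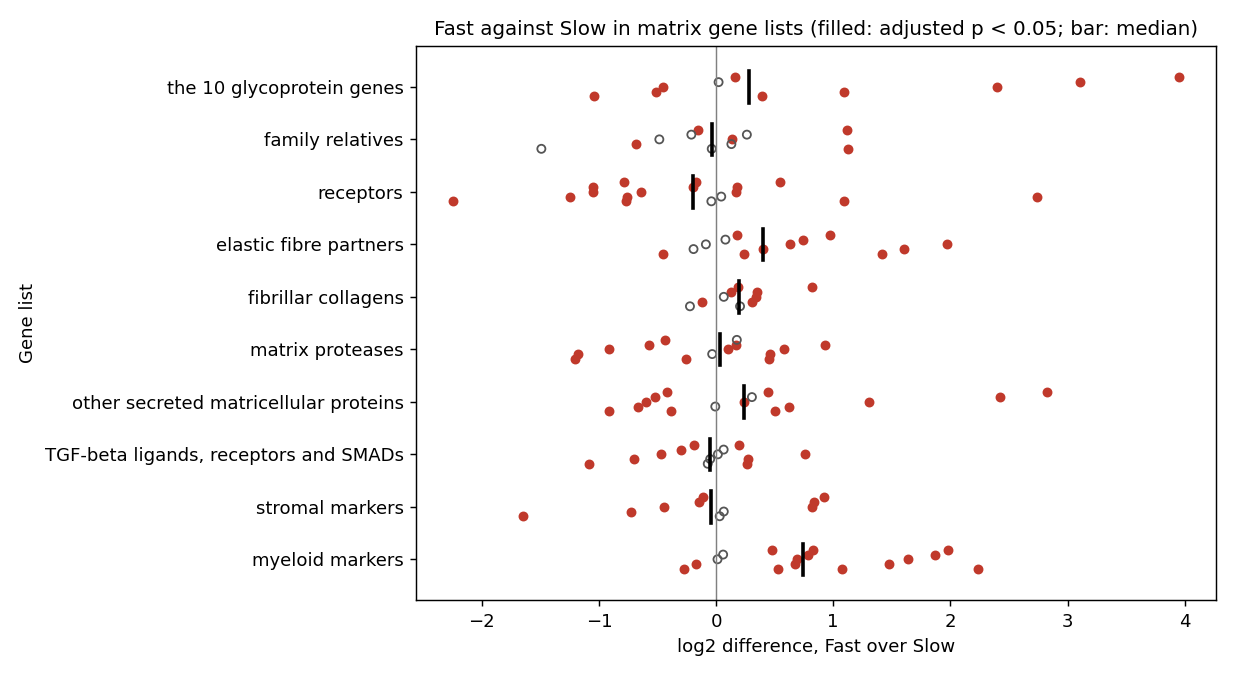
Log2 difference of Fast over Slow for every tested gene of each list, with filled points past an adjusted p of 0.05 and a bar at the list's median. The 10 glycoprotein genes spread from -1.04 to 3.95, the receptors lie mostly left of 0 (median -0.20), and the myeloid markers mostly right of it (median 0.74).

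Genes with the most similar profile were sought for the 5 genes with a difference of at least 1 on the log2 scale in some pair. Likeness was the root mean square distance of log2 CPM, centred on each gene's mean, over the 9 libraries, among 10344 candidates. For Postn they were Adgre1, a macrophage surface receptor gene, at 0.025, then Dclk1 (0.047) and Smarca1 (0.051). Adgre1 is also one of the myeloid markers, with a log2 difference of 1.07 in Fast over Slow and 0.48 in Medium over Slow, beside 1.10 and 0.46 for Postn. For Thbs1 they were Tsc22d1 (0.047), Pxdn, a matrix peroxidase gene (0.055), and Fxyd5 (0.059). Sned1 was nearest to Clec4a1, a C-type lectin gene (0.21), Akr1c14 (0.26) and Fat3 (0.33). Spon1 was nearest to Fat3 (0.21), Wisp2 (0.23) and the ion channel gene Asic3 (0.24). For Eln, whose few counts make the measure unreliable, they were Nsg2, Gprin3 and Fam198a, at 0.34 to 0.42.

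The authors' deposited table holds their own comparisons of the same libraries, which are no independent check. In the authors' deposited table Fn1 (log2 -0.03 in Slow over Medium, adjusted p = 0.0107) and Thbs1 (0.11, 0.0118) were past 0.05 where they were not in the fit used here. Sparc was the reverse, at -0.06 with an adjusted p of 0.0767 for Medium over Fast in the authors' deposited table.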

How the data were processed

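Per the file headers, the authors deposited 1 table with a read count and an FPKM value per gene and library, besides, for each pair of gels, a p-value, an adjusted p and a log2 fold change from a test that is not stated. The authors' group means in that table were not used. Bowtie 0.12.9, HTSeq, Cufflinks 2.1.1 and the mouse build mm10 are listed, per the submitters' processing notes, with no roles; identifiers are rat Ensembl ones. Strand use in counting is not stated. Groups came from the sample titles. Counts were filtered with filterByExpr (minimum count 10), leaving 14406 genes, scaled by TMM and tested in R 4.3.3 by edgeR 4.0.16 (glmQLFit and glmQLFTest, quasi-likelihood), all 9 libraries in 1 model with a term per group and Benjamini-Hochberg adjustment over all tested genes. SE is the log2 difference over the root of F. CPM use TMM factors. The functions were tested on simulated data. Replicate pairs differed by more than counting noise (chi-square per degree of freedom 2.80 to 6.29). The genes and lists were chosen with earlier results of these data known. Of 154 list entries 153 were in the table. Listed genes were named by the smallest adjusted p, 4 in Fast against Slow and 2 in Medium against Slow per list. Cd47, Cd36, Itga9, Mfap4, Lox, Col1a2 and the overlapping loci were named after their values were seen. Alternatives used DESeq2 1.42.0, limma 3.58.1, other scalings, filters, a replicate block and each library left out.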

Additional observations from a re-analysis of the deposited data

How the results depend on the processing

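Over all settings run (other scalings, tools, filters and libraries left out), calls of Sned1, Spon1, Postn, Tgfbi, Tnc, Fn1 and Thbs1 in Fast against Slow and Fast against Medium kept their direction and stayed past 0.05, Sned1 ranging from 3.33 to 4.05 and Thbs1 from -1.09 to -0.95 in Fast against Slow. With a 2-fold minimum besides the adjusted p, called genes numbered 1148, 101, 729 and 111 in Fast against Slow, Medium against Slow, Fast against Medium and Medium against the midpoint, and 5, 1, 3 and 0 of the 10 glycoprotein genes, or 4, 1, 2 and 0 without Eln, which only its Fast libraries brought past the filter. Without a fold minimum, leaving out 1 library gave 9, 7 to 9, 9 to 10 and 7 to 8 of the 10, Eln included. Over all genes these fits called 5414 to 6067, 1011 to 1905, 3920 to 4656 and 1208 to 2003. Of all calls in Fast against Slow, 49.4% were higher with TMM, 59.7% with factors from the upper quartile and 65.1% by library size alone; in Fast against Medium these were 47.5%, 57.9% and 63.9%. Directions that reversed were not past 0.05: Sparc in Medium against the midpoint (-0.000622 with upper quartile factors, -0.0121 with library size only) and Eln in Medium against Slow (-0.237 without Medium replicate 1, -0.312 without Slow replicate 1, within a range up to 0.455 without Slow replicate 2). Eln rests on 20 counts in Slow, so its level there is limited by depth. Same-numbered libraries did not deviate together (correlations -0.0323 to 0.0456, 0 of 9 pairs over 0.1). Whether the numbers pair libraries is not stated, and correlations over all genes cannot exclude it. With a replicate block 6111, 1397, 4643 and 1699 genes were called and the counts of the 10 were 9, 7, 10 and 8, as without it. The 9 and the 10 include Eln, whose calls against Fast are no support because of the filter.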
